A study of Mus musculus with 6 samples.

Results

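The genes described here are 35 genes of glucose transport, glycolysis and glycogen metabolism, chosen by symbol from a list, out of 27179 genes in each of 2 comparison tables. All 35 were present and all were tested in both tables. They were measured by RNA sequencing in C2C12, an immortalised mouse myoblast line that forms myotubes when serum is withdrawn. Cells that stably carried an shRNA construct were kept for 48 h in high-glucose medium with 2% horse serum and 2 µg/ml insulin. The control cells carried a scrambled shRNA with no target, and the other groups carried an shRNA against BAF250A or against BRD9. The Arid1a product BAF250A is part of the canonical BAF assembly of the SWI/SNF remodelling enzymes, and BRD9 is a bromodomain subunit of the non-canonical one. Each group had 2 libraries, called biological duplicates in the design text, and every comparison therefore rests on 2 libraries against 2. The sources used here do not state whether the lines were clones or pools. An shRNA reduces a transcript and leaves the gene in place, and each target had 1 knockdown line here. Because the labels do not say how the cultures were separated, p-values measure only the spread between these libraries, which may be technical.

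Glycolysis turns glucose into pyruvate and yields ATP with or without oxygen, and glycogen is the glucose store that muscle breaks down during contraction. Several steps are carried out by an isoform that rises in differentiated muscle and by another that proliferating cells also use. The glucose transporter GLUT4, the muscle subunit of phosphofructokinase, phosphoglycerate mutase 2, beta-enolase and muscle glycogen phosphorylase are the muscle forms, encoded by Slc2a4, Pfkm, Pgam2, Eno3 and Pygm. Many genes of the pathway are also known targets of hypoxia-inducible factors.

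The tables hold no column per library. The targeted genes were lower in their own knockdown in the authors' deposited table, Arid1a with a log2 fold change of -1.95 (SE 0.48, adjusted Wald p = 0.000381) and Brd9 with -1.60 (SE 0.54, adjusted Wald p = 0.0252). Positive values mean higher in the knockdown. The sign was read from the 2 libraries that both comparisons share, which can only be the controls. Because of this sharing, the comparisons are not independent of each other. Size factors recovered from the mean normalized counts were 1.07 to 1.58 for the controls and 0.773 to 0.841 for the knockdown libraries, so depth differed with the groups. Several processed copies of glycolysis genes, described below, were high in the shared controls and close to 0 in both knockdowns. Whether control and knockdown libraries were aligned and counted in the same way cannot be told apart from the knockdowns in these tables. That limit holds for every knockdown value given here, and most for genes that share sequence with other genes, such as Gapdh, Pgk1, Pkm and Ldhb. Of 11 muscle markers, 0 rose and 8 fell with BAF250A knockdown, and 1 rose and 1 fell with BRD9 knockdown in the authors' deposited table. With BAF250A 72.7% fell, beside 17.5% of all genes. With BRD9 18.2% were called, near the 14.4% of all genes. All 11 muscle markers were detected in both tables. Their implied means summed to 584246 normalized counts in the controls of the BAF250A table and 172867 with BAF250A knockdown, and to 609139 and 601610 in the BRD9 table. Acta1 gave 265650 and 42690 of the first pair and 275983 and 225817 of the second. Des gave 175968 and 101906, and 182873 and 153602, so these sums mostly show Acta1 and Des. In the BRD9 table Myod1, which rose, had 4608 and 14666, and Myf5, which fell, had 1874 and 544. Of 11 markers of other cell types, Adipoq was at 0 in every library, and Ptprc, Epcam and Plin1 had at most 5 reads in any library. Lyz2 rose and Cd68, Kdr, Tubb3 and Map2 fell with BAF250A knockdown, while Map2 rose and Cd68 and Kdr fell with BRD9 knockdown in the authors' deposited table. The implied means of this second list summed to 6501 in the controls and 559 with BAF250A knockdown, and to 6790 and 5865 in the BRD9 table. Tubb3 alone gave 5976 and 457 of the first pair and 6219 and 4998 of the second, so these sums mostly show 1 gene. The part of the markers of both lists in the results below was not tested. Fewer cells of a type and less RNA per cell cannot be told apart in these bulk libraries.

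With BAF250A knockdown 9 of the 35 genes rose and 2 fell in the authors' deposited table. These 11 calls are a share of 31.4%, against 28.7% among all 16450 genes tested, so the share as a whole lay near the background. The direction was uneven, with 25.7% of the genes higher against 11.2% of all genes, and 5.71% lower against 17.5% of all genes. With BRD9 knockdown 6 genes rose and 2 fell in the authors' deposited table, a share of 22.9% against 14.4% of the 17198 genes tested. By direction, 17.1% rose against 5.11% of all genes and 5.71% fell against 9.33% of all genes. The median log2 fold change of the 35 genes was 0.56 with BAF250A knockdown and 0.16 with BRD9 knockdown in the authors' deposited table, beside medians of -0.18 and -0.15 over all genes. Slc2a3, Slc2a4, Aldoc, Pgk1, Ldhb and Phkb were called higher in both comparisons, and since both use the same controls this count is no independent repeat. Pfkl, Pfkfb3, Pkm, Pgam2 and Pygm passed only with BAF250A, Gapdh and Eno2 only with BRD9, and 22 genes passed in neither. How many of all genes passed in both, in one or in neither was not counted, so these overlaps have no background beside them. A test of the difference between the knockdowns passed for 1 of the 35 genes, Pygm, or 2.86%, against 2.54% of 16311 genes. In the lower direction the share over all genes was 1.99%. Stricter rules left fewer calls. Bonferroni adjustment called 5 of the 35 genes with BAF250A (9.51% of all genes), 3 with BRD9 (5.47%) and 0 in the difference (0.754%). An empirical null, which scales the scores by their own spread, called 4 with BAF250A (4.21% of all genes), 3 with BRD9 (5.08%) and 3 in the difference (4.24%). At an adjusted p below 0.01 the calls were 7 with BAF250A (20.1% of all genes), 7 with BRD9 (10.4%) and 1 in the difference (1.66%).

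**Figure D1:**
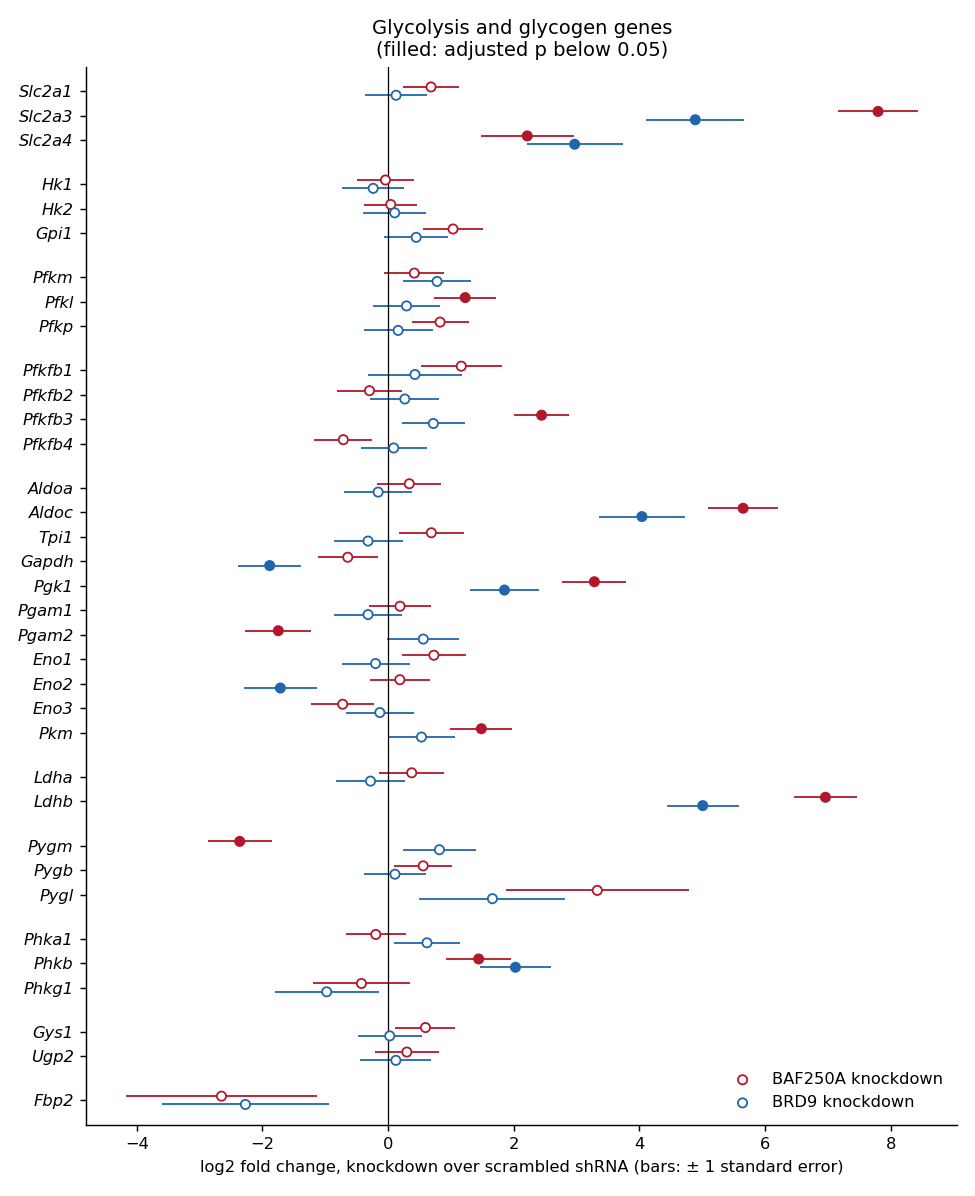
Log2 fold change of each of the 35 genes (x axis, knockdown over scrambled shRNA) with its standard error as a bar, in the order of their roles from glucose transport to glycogen, red for BAF250A and blue for BRD9 knockdown. Slc2a3, Ldhb and Aldoc lie farthest to the right in both, and Pygm and Pgam2 lie left of 0 with BAF250A and right of 0 with BRD9.

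Promoter sequence is shown for 2 genes that rose in both comparisons, Pgk1 and Ldhb, and for 2 muscle genes that fell with BAF250A knockdown, Pgam2 and Pygm. The 250 bases before the start are taken from RefSeq on GRCm38.p6 and read 5′ to 3′ on the gene's strand. They lie at chrX:106186850-106187099 on the plus strand (Pgk1), chr6:142507958-142508207 on the minus strand (Ldhb), chr11:5803797-5804046 on the minus strand (Pgam2) and chr19:6384158-6384407 on the plus strand (Pygm). In the first pair, capitals mark ACGTG or GCGTG on either strand, the core of a hypoxia response element. In the second pair, capitals mark CANNTG, the E-box that myogenic factors can bind, and the MEF2 consensus.
Pgk1: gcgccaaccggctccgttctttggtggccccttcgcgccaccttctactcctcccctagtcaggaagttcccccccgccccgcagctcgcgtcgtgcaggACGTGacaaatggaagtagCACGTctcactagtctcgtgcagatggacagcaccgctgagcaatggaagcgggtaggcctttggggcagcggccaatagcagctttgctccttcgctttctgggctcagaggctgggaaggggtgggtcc
Ldhb: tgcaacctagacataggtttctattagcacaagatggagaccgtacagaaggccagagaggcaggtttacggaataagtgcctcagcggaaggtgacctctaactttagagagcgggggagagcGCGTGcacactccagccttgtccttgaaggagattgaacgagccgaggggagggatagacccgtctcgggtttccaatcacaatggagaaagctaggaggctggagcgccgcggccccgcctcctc
Pgam2: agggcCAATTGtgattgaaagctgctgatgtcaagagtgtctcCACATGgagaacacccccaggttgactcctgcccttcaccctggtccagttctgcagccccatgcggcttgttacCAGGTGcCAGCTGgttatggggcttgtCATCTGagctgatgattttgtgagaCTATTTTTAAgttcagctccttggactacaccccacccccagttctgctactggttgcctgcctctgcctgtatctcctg
Pygm: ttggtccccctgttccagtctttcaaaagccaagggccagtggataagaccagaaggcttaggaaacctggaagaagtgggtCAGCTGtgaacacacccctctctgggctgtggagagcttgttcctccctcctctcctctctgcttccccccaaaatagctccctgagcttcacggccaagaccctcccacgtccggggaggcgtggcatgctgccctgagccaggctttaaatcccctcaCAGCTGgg
The Pgk1 window held 2 matches to ACGTG or GCGTG and 17 CG dinucleotides, and the Ldhb window held 1 match and 14 CG dinucleotides, beside a median of 5 CG dinucleotides over all promoters. The Pgam2 window held 5 E-boxes, 1 MEF2 match and 1 CG dinucleotide, and the Pygm window held 2 E-boxes and 4 CG dinucleotides. The first motif is short: 37.9% of 22862 promoters of genes with a single start held it, 66.3% held CANNTG and 3.11% held the MEF2 consensus. Of the 22 genes described here with a single start, 16 held ACGTG or GCGTG, 12 held CANNTG and 1, Pgam2, held the MEF2 consensus. Pygm also held 2 matches to the first motif, and Pgk1 2 E-boxes, which are not in capitals. CACGTG counts under both motifs. These matches are letters in a window, with no measurement of binding in these data.

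Glucose enters the cell through transporters of the SLC2 family, and 2 of the 3 among the 35 genes rose in both comparisons, beside 11.2% of all genes higher with BAF250A and 5.11% with BRD9 knockdown. The values of 3 further family members are given with the rest of the pathway. Slc2a3 (6:122727809-122802363, mm10) encodes GLUT3, a high-affinity transporter best known from neurons. It had 4 and 4 reads in the control libraries, 644 and 746 with BAF250A knockdown, and 164 and 62 with BRD9 knockdown. The controls were thus close to absence, and no knockdown library came near them. Its log2 fold change was 7.80 (SE 0.63, adjusted Wald p = 1.83e-32) with BAF250A and 4.89 (SE 0.78, adjusted Wald p = 1.25e-08) with BRD9 in the authors' deposited table. The raw ratio of normalized reads was larger, 8.16 and 5.41 on the log2 scale, so the deposited values are moderated at low counts. Slc2a4 (11:69942286-69948216) encodes GLUT4, the insulin-responsive transporter of muscle and fat. It had 6.35 and 39.3 normalized reads in the controls, 112 and 119 with BAF250A knockdown, and 339 and 107 with BRD9 knockdown. The knockdown libraries all lay above the controls, although the controls themselves stood apart. It rose by 2.21 (SE 0.74, adjusted Wald p = 0.0131) and by 2.97 (SE 0.76, adjusted Wald p = 0.0013) on the log2 scale in the authors' deposited table. Slc2a1, the gene of the widely expressed transporter GLUT1, stood at 0.68 (SE 0.45, adjusted Wald p = 0.266) and 0.13 (SE 0.50, adjusted Wald p = 0.916) in the authors' deposited table. Per base of transcript, Slc2a4 made up only 0.614% of the Slc2a4 and Slc2a1 pair in the controls of the BAF250A table and 1.76% in that knockdown. In the BRD9 table its share was 0.675% in the controls and 4.65% in the knockdown.

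Glucose is trapped by hexokinase, and the isomerase Gpi1 passes it on towards phosphofructokinase. Hk1, Hk2 and Gpi1 passed in neither comparison in the authors' deposited table. Hexokinases stood between -0.24 and 0.10 on the log2 scale over both knockdowns, and Gpi1 stood at 1.03 (SE 0.48, adjusted Wald p = 0.0901) with BAF250A knockdown in the authors' deposited table. Phosphofructokinase commits sugar to glycolysis, and its liver-type subunit gene Pfkl (10:77986947-78009807) was the only subunit called. Its implied mean, the group mean worked out from the deposited mean and fold change, was 13338 normalized counts in the controls and 31205 with BAF250A knockdown. It stood at 1.23 (SE 0.49, adjusted Wald p = 0.0448) with BAF250A and 0.29 (SE 0.53, adjusted Wald p = 0.8) with BRD9 in the authors' deposited table, and with no filter on low values the BAF250A call ended (adjusted p = 0.0567). The platelet-type gene Pfkp stood at 0.83 (SE 0.45, adjusted Wald p = 0.165) and the muscle-type gene Pfkm at 0.42 (SE 0.48, adjusted Wald p = 0.562) with BAF250A knockdown in the authors' deposited table. With BRD9 knockdown Pfkm stood at 0.78 (SE 0.55, adjusted Wald p = 0.407) and Pfkp at 0.16 (SE 0.55, adjusted Wald p = 0.903) in the authors' deposited table. The 3 subunits therefore had positive values in both comparisons, and only Pfkl with BAF250A passed.

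Phosphofructokinase is activated by fructose 2,6-bisphosphate, which the bifunctional enzymes of the PFKFB family make and remove. Pfkfb3 (2:11471430-11554071), the form with the strongest kinase activity, rose with BAF250A knockdown. Its implied mean was 446 normalized counts in the controls and 2425 in that knockdown. The log2 fold change was 2.44 (SE 0.44, adjusted Wald p = 4.96e-07) with BAF250A and 0.72 (SE 0.50, adjusted Wald p = 0.408) with BRD9 in the authors' deposited table. The difference of 1.72 (SE 0.67) did not pass over all genes (adjusted p = 0.228). Pfkfb1, Pfkfb2 and Pfkfb4 passed in neither comparison, with log2 fold changes from -0.71 for Pfkfb4 to 1.16 for Pfkfb1, both with BAF250A, in the authors' deposited table. Pfkfb1 had 36.8 and 25.6 normalized reads in the controls, 76.1 and 69.9 with BAF250A knockdown and 34.5 and 56.2 with BRD9 knockdown. Its BAF250A libraries lay above the controls, and its BRD9 libraries overlapped them.

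Among the 11 genes from aldolase to pyruvate kinase, 3 rose and 1 fell with BAF250A, and 2 rose and 2 fell with BRD9 knockdown, in the authors' deposited table. The share called was 36.4% in each, beside 28.7% and 14.4% of all genes. Aldoc (11:78323073-78327781) encodes aldolase C, the brain form of the enzyme that splits fructose bisphosphate. It had 12 and 13 reads in the controls, 384 and 485 with BAF250A knockdown, and 246 and 92 with BRD9 knockdown. It rose by 5.65 (SE 0.55, adjusted Wald p = 1.01e-22) and by 4.04 (SE 0.68, adjusted Wald p = 9.66e-08) on the log2 scale in the authors' deposited table. Every knockdown library lay above both controls. Aldoa, the gene of the main muscle aldolase, stood at 0.34 (SE 0.51, adjusted Wald p = 0.672) and -0.16 (SE 0.54, adjusted Wald p = 0.901), and Tpi1, the triose phosphate isomerase gene, at 0.69 and -0.32, in the authors' deposited table.

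Pgk1 (X:106187100-106203699) encodes phosphoglycerate kinase 1, the first ATP-forming enzyme of the pathway. Its implied mean was 13530 normalized counts in the controls, 131603 with BAF250A knockdown and 49851 with BRD9 knockdown. It rose by 3.28 (SE 0.51, adjusted Wald p = 2.19e-09) and by 1.85 (SE 0.55, adjusted Wald p = 0.00729) on the log2 scale in the authors' deposited table. Of its 31-base words 54.7% also occur in another annotated gene, and 0% in another gene of the tables, so where the shared reads went is unknown and the size is uncertain. Pkm (9:59656576-59679372), which encodes the muscle-type pyruvate kinases M1 and M2, had an implied mean of 114129 in the controls and 319069 with BAF250A knockdown. It rose by 1.48 (SE 0.49, adjusted Wald p = 0.0126) with BAF250A and stood at 0.53 (SE 0.53, adjusted Wald p = 0.6) with BRD9 in the authors' deposited table. It is likewise uncertain, with 34.7% of its words shared, and the tables do not separate its splice forms. Gapdh (6:125161852-125166467), the glyceraldehyde phosphate dehydrogenase gene often used as a reference, fell by 1.89 (SE 0.50, adjusted Wald p = 0.00222) with BRD9 knockdown in the authors' deposited table. Of its words 27.2% occur in another annotated gene and 24.6% in another gene of the tables, so its size is uncertain too. These are shares of the 4408 words of all its transcripts together, while its longest coding transcript has 1420 bases. Another annotated gene, Gm7336, holds 1169 of the words, so the shared part of that transcript can be much larger. The implied mean of Gapdh was 63648 normalized counts in the controls and 17229 with BRD9 knockdown. With BAF250A knockdown it stood at -0.64 (SE 0.48, adjusted Wald p = 0.334) in the authors' deposited table. Eno2 (6:124760053-124769673), which encodes the neuronal gamma-enolase, fell by 1.72 (SE 0.58, adjusted Wald p = 0.0241) with BRD9 and stood at 0.19 (SE 0.47, adjusted Wald p = 0.812) with BAF250A knockdown in the authors' deposited table. For Gapdh and Eno2 the difference between the knockdowns was 1.24 (SE 0.70, adjusted p = 0.736) and 1.90 (SE 0.75, adjusted p = 0.236), and neither passed.

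Pyruvate and lactate are interconverted by lactate dehydrogenase, a tetramer of A and B chains. Ldhb (6:142490249-142507957), the gene of the B chain typical of heart, had 16 and 18 reads in the controls, 1579 and 1378 with BAF250A knockdown, and 421 and 433 with BRD9 knockdown. The libraries of each knockdown stood close together and far above both controls. The BRD9 libraries were less alike for other genes: the library with 501 normalized reads of Ldhb, against 554 in its partner, had 195 of Slc2a3 against 79.3 and 292 of Aldoc against 118. It rose by 6.96 (SE 0.50, adjusted Wald p = 6.48e-41) and by 5.01 (SE 0.57, adjusted Wald p = 1.57e-16) on the log2 scale in the authors' deposited table. Of its words 33.0% occur in another annotated gene and 0% in another gene of the tables. Ldha, the gene of the A chain typical of skeletal muscle, stood at 0.37 (SE 0.52, adjusted Wald p = 0.638) and -0.28 (SE 0.55, adjusted Wald p = 0.815) in the authors' deposited table.

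**Figure D2:**
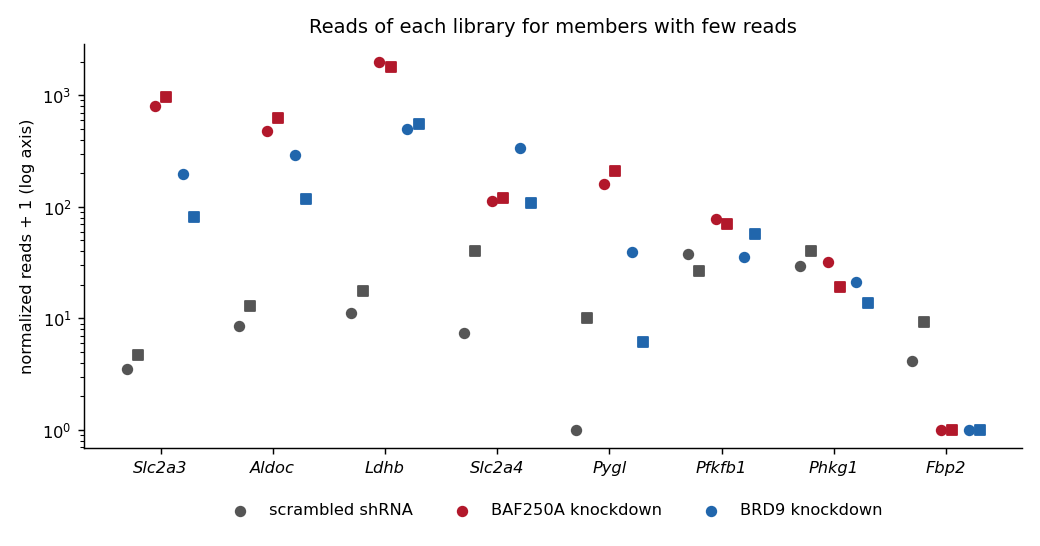
Normalized reads plus 1 (log axis) in each library for the 8 genes whose reads could be recovered, circles and squares for the 2 libraries of a group and grey, red and blue for scrambled shRNA, BAF250A and BRD9 knockdown. Slc2a3, Aldoc and Ldhb lie above the controls in every knockdown library, and Fbp2 had 0 reads in all 4 of them.

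Glycogen phosphorylase releases glucose from glycogen. Pygm (19:6384408-6398464), the muscle form, had an implied mean of 5461 normalized counts in the controls and 1062 with BAF250A knockdown. It fell by 2.36 (SE 0.51, adjusted Wald p = 4.09e-05) with BAF250A and stood at 0.82 (SE 0.58, adjusted Wald p = 0.418) with BRD9, where the implied mean was 10228, in the authors' deposited table. The difference of -3.18 (SE 0.78) between the knockdowns passed over all genes tested (adjusted p = 0.00323). Pygb, the brain form, stood at 0.56 (SE 0.46, adjusted Wald p = 0.387) and 0.11 (SE 0.50, adjusted Wald p = 0.929) in the authors' deposited table. Pygl, the liver form, had 0 and 10 reads in the controls, 128 and 162 with BAF250A knockdown, and 32 and 4 with BRD9 knockdown. The BAF250A libraries lay above both controls while the BRD9 libraries overlapped them, and Pygl stood at 3.33 (SE 1.45, adjusted Wald p = 0.0699) and 1.66 (SE 1.16, adjusted Wald p = 0.407) in the authors' deposited table.

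Phosphorylase kinase switches phosphorylase on, and its beta subunit gene Phkb (8:85840853-86064251) rose in both comparisons. The implied mean was 572 normalized counts in the controls of the BAF250A table, 1553 with BAF250A knockdown and 2542 with BRD9 knockdown. It rose by 1.44 (SE 0.52, adjusted Wald p = 0.0227) and by 2.03 (SE 0.57, adjusted Wald p = 0.00391) on the log2 scale in the authors' deposited table. The alpha subunit gene Phka1 and the catalytic subunit gene Phkg1 passed in neither, with values from -0.98 to 0.62 in the authors' deposited table. Phkg1 had 45 and 43 reads in the controls, 25 and 14 with BAF250A knockdown and 17 and 10 with BRD9 knockdown, but its normalized reads overlapped between the controls and BAF250A knockdown. Synthesis runs through Ugp2, which makes UDP-glucose, and the muscle glycogen synthase gene Gys1. Neither passed, with values from 0.03 to 0.59 in the authors' deposited table. Fbp2, the gene of muscle fructose bisphosphatase, which reverses the phosphofructokinase step, had 5 and 9 reads in the controls and 0 in all 4 knockdown libraries. At a floor of 3 counts over the group it was at least 2.99-fold lower with BAF250A and at least 3.20-fold lower with BRD9 knockdown, and it passed in neither (adjusted Wald p = 0.187 and 0.298 in the authors' deposited table). This floor covers counting error only.

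The muscle form of each step was then set beside its widely expressed counterpart, in 7 pairs and with no test. The pairs hold only 5 muscle genes, since Pfkm and Pygm occur in more than 1 pair, so they are not independent. With BAF250A knockdown the muscle form held a smaller share of 6 of the 7 pairs than in the controls, the exception being Slc2a4. With BRD9 knockdown its share was smaller in 1 of the 7, Pygm beside Pygl. That share was 99.9% in the controls and 99.8% with BRD9 knockdown, and it rests on the few Pygl reads given above. Shares are implied means per base of the longest transcript. Pgam2 (11:5801637-5803796), phosphoglycerate mutase 2, fell by 1.75 (SE 0.52, adjusted Wald p = 0.00489) with BAF250A and stood at 0.56 (SE 0.57, adjusted Wald p = 0.611) with BRD9 in the authors' deposited table. Its implied mean was 2186 normalized counts in the controls, 651 with BAF250A knockdown and 3404 with BRD9 knockdown. The difference of -2.31 (SE 0.78) did not pass (adjusted p = 0.0932). Pgam1 stood at 0.19 (SE 0.49, adjusted Wald p = 0.816) and -0.32 (SE 0.54, adjusted Wald p = 0.781) in the authors' deposited table, with 37.1% of its words shared. The Pgam2 share of the pair was 17.9% in the controls and 5.38% with BAF250A knockdown, and 18.2% and 29.1% in the BRD9 table. The muscle gene thus moved from a minor to a smaller part of the pair with BAF250A.

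For enolase, Eno3, the muscle form, stood at -0.72 (SE 0.50, adjusted Wald p = 0.289) and -0.13 (SE 0.55, adjusted Wald p = 0.921), and Eno1, the widely expressed form, at 0.73 (SE 0.51, adjusted Wald p = 0.292) and -0.20 (SE 0.54, adjusted Wald p = 0.873), in the authors' deposited table. The Eno3 share was 26.1% in the controls and 11.4% with BAF250A knockdown, against 26.4% and 27.3% in the BRD9 table. For phosphorylase the Pygm share of the Pygm and Pygb pair was 59.6% and 16.3% with BAF250A, and 60.3% and 71.2% with BRD9. The pair thus went from mostly muscle form to mostly brain form with BAF250A knockdown. Beside Pfkl, Pfkm had 44.7% and 31.6% with BAF250A and 45.3% and 53.7% with BRD9. The log2 fold change of the muscle form minus that of its counterpart, with BAF250A, was -2.92 (SE 0.69) for Pygm and Pygb, -1.94 (SE 0.72) for Pgam2 and Pgam1, -1.45 (SE 0.71) for Eno3 and Eno1 and -0.81 (SE 0.69) for Pfkm and Pfkl. With BRD9 the same values were 0.71 (SE 0.77), 0.88 (SE 0.79), 0.07 (SE 0.77) and 0.49 (SE 0.76). For Pfkm and Pfkp the difference was -0.41 (SE 0.66) with BAF250A and 0.62 (SE 0.77) with BRD9. For Pygm and Pygl it was -5.69 (SE 1.54) and -0.84 (SE 1.30), with few Pygl reads. For Slc2a4 and Slc2a1 the difference was positive in both, 1.53 (SE 0.87) and 2.84 (SE 0.91). Among the muscle markers 8 of 11 fell with BAF250A knockdown, as given above, beside 17.5% of all genes. The part of that fall in these shares was not tested.

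**Figure D3:**
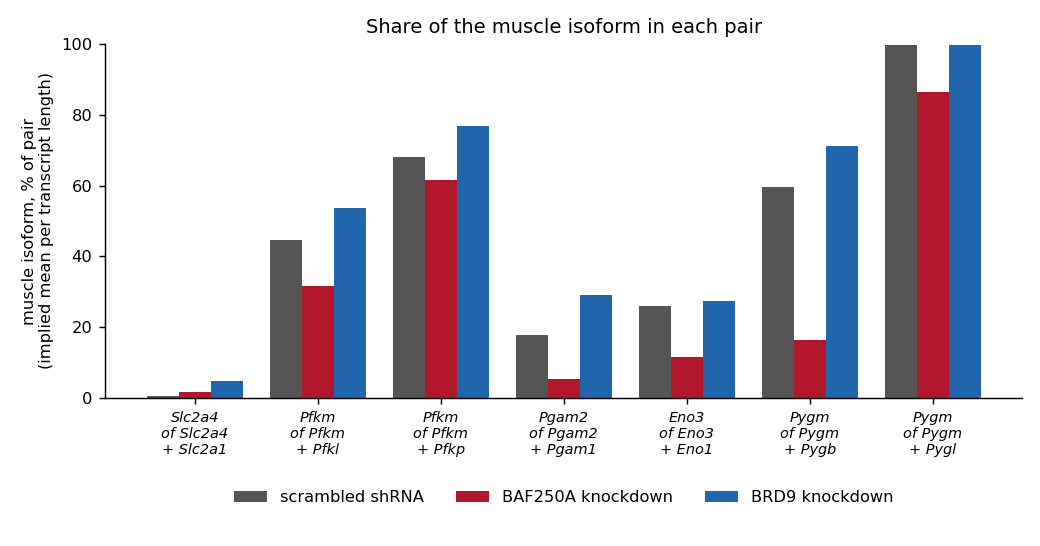
Share of the muscle isoform in each of 7 pairs (y axis, % of the implied means per base of transcript) in scrambled shRNA cells (controls of the BAF250A table) and both knockdowns. The red bars of the pairs with Pgam2, Eno3 and Pygm beside Pygb are the lowest of their 3, at 5.38%, 11.4% and 16.3%.

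Aldoa, Eno1 and Gapdh have processed copies in the tables that share sequence with them. Of these copies 5 had log2 fold changes of larger size than the genes in both comparisons. Of the 31-base words of Aldoa, 5.34% occur in Aldoart1 and 2.46% in Aldoart2. Eno1b holds 27.7% of those of Eno1, and Gm12070 and Gapdh-ps15 hold 21.3% and 19.2% of those of Gapdh. These are shares of the words of all transcripts of a gene together, and can understate the overlap with its longest coding transcript. Eno1b holds 1509 words of Eno1, whose longest coding transcript has 2027 bases. Aldoart1 holds 206 words of Aldoa, whose longest coding transcript has 1549 bases. The overlap was thus smaller for Aldoa than for the others. Aldoart1, a copy of Aldoa, had an implied mean of 73760 normalized counts in the controls, 16.0 with BAF250A knockdown and 28.6 with BRD9 knockdown. Aldoart2 had 23713, 1.77 and 2.54, and Gapdh-ps15, a pseudogene of Gapdh, had 13523, 30.4 and 19.1. Eno1b, a copy of Eno1, had 214921, 52722 and 31562, and Gm12070, another pseudogene of Gapdh, had 36187, 4710 and 2030. All 5 fell in both comparisons in the authors' deposited table, and Aldoart1, Aldoart2 and Gapdh-ps15 were nearly absent there. The copies Gm5069 and 3000002C10Rik of Gapdh passed in neither comparison in the authors' deposited table. Gm5523, a Gapdh copy with a lower mean, went the other way. It rose by 1.86 (SE 0.66, adjusted Wald p = 0.0213) with BAF250A and stood at 0.91 (SE 0.77, adjusted Wald p = 0.514) with BRD9 in the authors' deposited table. Copies made up 36.9% of the Aldoa sum in the controls and 0.00844% with BAF250A knockdown. For Eno1 the shares were 62.8% and 20.0%, and for Gapdh 44.8% and 11.4%.

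Adding the copies to their gene changed the values, and for Aldoa and Eno1 with BAF250A the direction. The log2 ratio of the Aldoa sum was -0.33 with BAF250A and -0.83 with BRD9, where the gene alone stood at 0.34 and -0.16 in the authors' deposited table. For Eno1 the sum gave -0.38 and -1.28, against 0.73 and -0.20 for the gene alone in the authors' deposited table. For Gapdh the sum gave -1.33 and -2.57, against -0.64 and -1.89 in the authors' deposited table. Ldha had a single low copy, and its sum stood at 0.37 and -0.28, as the gene alone did. How reads of shared sequence were divided between a gene and its copies cannot be told from these tables. The directions of Aldoa and Eno1 are therefore uncertain. So are the size of the Gapdh change and the Eno3 share of the pair with Eno1. For Aldoa the shared part was smaller than for Eno1, so this limit covers less of its sequence.

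**Figure D4:**
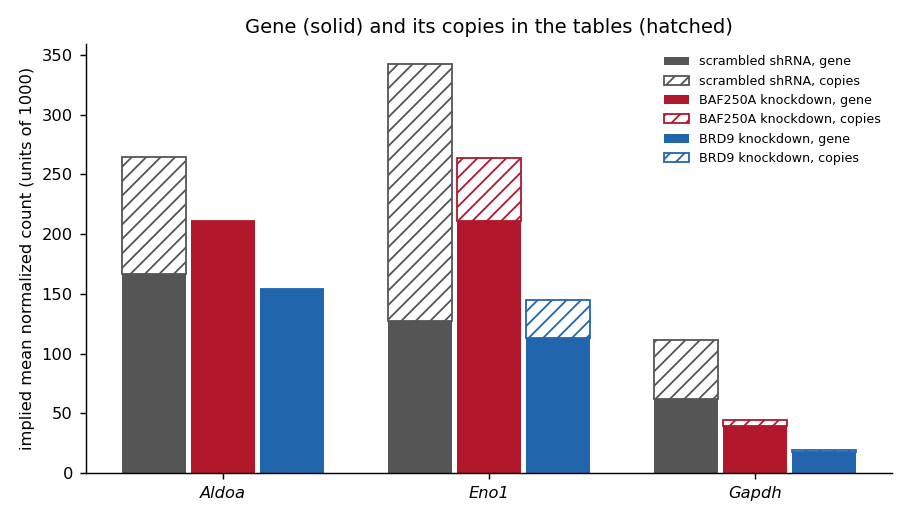
Implied mean normalized counts (axis in units of 1000) of Aldoa, Eno1 and Gapdh (solid) and of their copies in the tables (hatched), in scrambled shRNA cells (controls of the BAF250A table) and both knockdowns. Copies hold 62.8% of the Eno1 sum in the controls, and the Aldoa copies are visible only there.

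The rest of the pathway was read from 5 further lists with 93 genes in the tables, chosen with earlier results known. With BAF250A 22 of 83 tested genes rose and 10 fell, and with BRD9 10 of 84 rose and 3 fell, in the authors' deposited table. These are shares of 38.6% against 28.7% of all genes and 15.5% against 14.4% of all genes. Of the other glycogen genes 6 of 17 rose and 2 fell with BAF250A, and 2 of 18 rose with BRD9, in the authors' deposited table, so 47.1% and 11.1% were called beside 28.7% and 14.4% of all genes. The glycogen branching enzyme gene Gbe1 rose by 2.92 (SE 0.50, adjusted Wald p = 1.1e-07) with BAF250A and stood at 1.24 (SE 0.57, adjusted Wald p = 0.145) with BRD9 in the authors' deposited table. Ppp1r3c, which brings protein phosphatase 1 to glycogen, had 30.5 and 65.8 normalized reads in the controls, 290 and 370 with BAF250A knockdown and 38.0 and 28.1 with BRD9 knockdown. It thus rose with BAF250A only, and its difference between the knockdowns of 3.23 passed over all genes (adjusted p = 0.0232). Phka2, the liver alpha subunit of phosphorylase kinase, rose by 1.34 (SE 0.48) with BRD9 in the authors' deposited table. Pgm5, a relative of phosphoglucomutase without its usual activity, fell by 3.64 (SE 0.49) with BAF250A and stood at -0.03 (SE 0.58) with BRD9 in the authors' deposited table.

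Of the other transport and glycolysis genes 2 of 14 rose and 3 fell with BAF250A, and 1 of 15 rose and 1 fell with BRD9, in the authors' deposited table, or 35.7% and 13.3% beside 28.7% and 14.4% of all genes. The transporter gene Slc2a10 rose by 3.47 and 2.19, and Slc2a9, a urate transporter gene, fell by 1.29 and 2.00, on the log2 scale in the authors' deposited table. Slc2a6 fell by 4.03 (SE 0.57) and Tigar, a fructose bisphosphatase gene regulated by p53, fell by 2.12 (SE 0.47) with BAF250A, with values of -1.11 and -1.04 with BRD9, in the authors' deposited table. Of the genes of lactate and pyruvate fate 7 of 21 rose and 0 fell with BAF250A and 5 of 20 rose and 0 fell with BRD9 in the authors' deposited table. These shares were 33.3%, near the 28.7% of all genes, and 25% with BRD9, beside 14.4%. All of these calls were rises, beside 11.2% and 5.11% of all genes higher. Pdk1, a kinase that switches off pyruvate dehydrogenase, rose by 2.43 (SE 0.43) and 1.70 (SE 0.48), and Emb, a chaperone of monocarboxylate transporters, by 3.38 and 2.08, in the authors' deposited table. Pdk3 rose by 1.96 with BAF250A and the alanine aminotransferase gene Gpt2 by 1.88 with BRD9 in the authors' deposited table. In the pentose phosphate and glycerol list 2 of 12 rose with BAF250A and 1 of 12 with BRD9 in the authors' deposited table, and 0 fell. These shares of 16.7% and 8.33% lay below those called over all genes. By direction, 11.2% and 5.11% of all genes rose. The transketolase gene Tkt rose by 2.26 (SE 0.47) with BAF250A and stood at 0.26 with BRD9, and Gfpt2, which starts hexosamine synthesis, rose by 3.40 with BAF250A and stood at 2.27 with BRD9, in the authors' deposited table. Gpd1, the glycerol phosphate dehydrogenase gene, had 38.1 and 76.8 normalized reads in the controls, 18.7 and 12.9 with BAF250A and 366 and 138 with BRD9 knockdown. The groups lay apart in opposite directions, and it rose by 1.96 (SE 0.64) with BRD9 and stood at -1.73 (SE 0.76) with BAF250A knockdown in the authors' deposited table. Its relative Gpd1l passed in neither, at -0.23 and 0.99 in the authors' deposited table.

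Of the regulators 5 of 19 rose and 5 fell with BAF250A, and 1 rose and 2 fell with BRD9, in the authors' deposited table. The shares called were 52.6% and 15.8%, beside 28.7% and 14.4% of all genes. Ppargc1a, the coactivator gene of mitochondrial and GLUT4 expression, fell by 3.51 (SE 0.62) and 2.63 (SE 0.74), and Esrra, its partner receptor gene, by 1.65 and 1.44, in the authors' deposited table. Tbc1d4, which holds GLUT4 vesicles inside the cell, rose by 1.22 and 1.69 in the authors' deposited table. Prkag3, the muscle gamma subunit of AMP-activated kinase, fell by 2.68 (SE 0.49) with BAF250A and stood at 1.16 (SE 0.54) with BRD9 in the authors' deposited table. Epas1, the gene of hypoxia-inducible factor 2 alpha, had 19.0 and 4.57 normalized reads in the controls, 296 and 225 with BAF250A and 11.9 and 7.67 with BRD9 knockdown. It rose by 4.22 (SE 0.64) with BAF250A knockdown in the authors' deposited table, and the BRD9 libraries lay between the controls. Among 18 genes of the hypoxia response outside glycolysis, 12 rose and 1 fell with BAF250A and 5 rose and 0 fell with BRD9 in the authors' deposited table. With BAF250A 66.7% rose beside 11.2% of all genes and 5.56% fell beside 17.5%, and with BRD9 27.8% rose beside 5.11%. Their medians were 1.49 and 0.30 on the log2 scale. Adm, the adrenomedullin gene, rose by 7.24 and 3.92, Car12, a carbonic anhydrase gene, by 4.98 and 2.75, and Bnip3, a mitophagy receptor gene with 20.3% of its words shared, by 3.53 and 2.00, in the authors' deposited table.

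**Figure D5:**
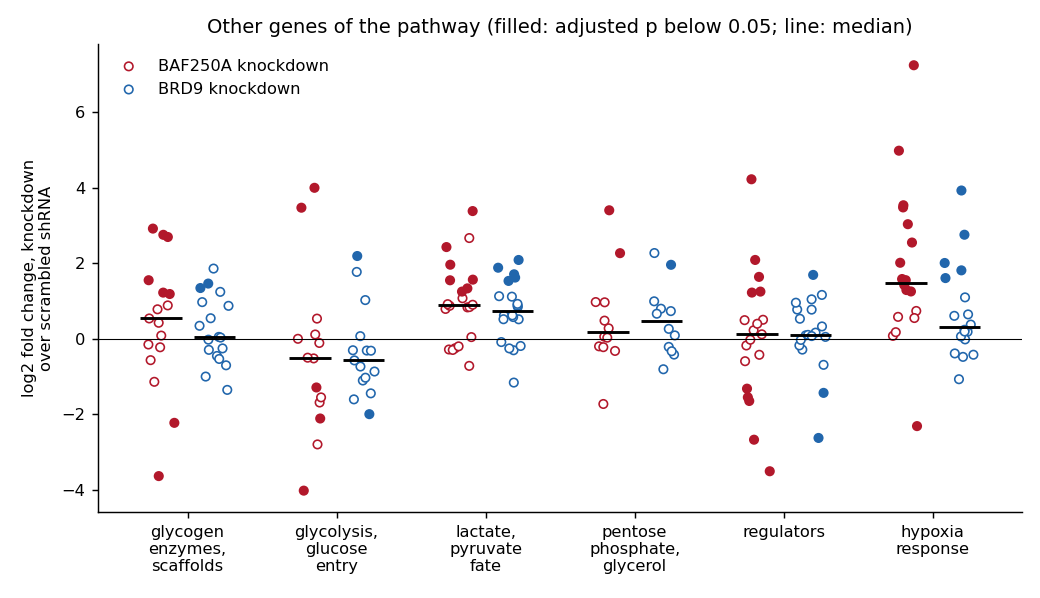
Log2 fold change (y axis, knockdown over scrambled shRNA) of every tested gene in 5 lists of the rest of the pathway and in 18 hypoxia-response genes, red for BAF250A and blue for BRD9 knockdown, with the list median as a line. The hypoxia-response genes have the highest BAF250A median of the 6 lists, 1.49.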

How the data were processed

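The series holds 6 mouse RNA-seq libraries in 3 groups of 2, and 2 tables of the authors' comparisons were used. Build mm10 and the tools DESeq2, RSEM, Bowtie, StringTie and HISAT are listed in the submitters' processing notes, with no roles or versions. Each deposited table holds, per the file headers, a mean normalized count (a signal over 4 libraries), a log2 fold change with its error, a Wald score, a p-value and an adjusted p-value. The 35 genes and all lists were chosen with earlier results of these data known.

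The authors' adjusted p below 0.05 was the call. Group means were implied from the deposited mean and fold change, which fails at low counts. Reads per library were recovered for 8 of the 35 genes as whole numbers of reads divided by size factors; which library is replicate A or B is unknown, and normalized control reads are given on the scale of the BAF250A table. The knockdowns were compared as the difference of log2 fold changes over the root of the summed squared errors, with normal p-values (two-sided) that were adjusted by Benjamini-Hochberg over 16311 genes. This test is conservative because the shared controls cancel. Shared words are 31-base stretches of a gene's transcripts found in another GENCODE gene. Their share is of the words of all transcripts of the gene together. It can be lower than the share of the longest coding transcript, also where genes were excluded by it. Of the 35 genes, 33 were in the RefSeq promoter table. Full values are given for genes called in either table or in the difference, for the muscle isoforms and counterparts, and for up to 3 genes per other list and table with the smallest adjusted p. Copies with a mean of 100 or more are named, and Gm5523 below that mean. One result that this rule would name is not reported here. Python 3.11.15, pandas 2.3.3, numpy 2.4.6, SciPy 1.17.1 and Numba 0.67.0 were used. Alternatives were Bonferroni adjustment, an empirical null, centring, other filters and thresholds and exclusion of genes with shared words.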

Additional observations from a re-analysis of the deposited data

Results flagged for a closer look

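Of the 35 genes, Pygm was the only one whose fold changes differed between the knockdowns by the test of the difference, at -3.18 on the log2 scale (BAF250A minus BRD9). Among the other genes of the pathway the difference passed for Pgm5 at -3.62, Slc2a6 at -2.92, Gpd1 at -3.69 and Prkag3 at -3.84, all lower with BAF250A. It passed in the other direction for Ppp1r3c at 3.23 and for Epas1 at 4.51. These 6 were 7.32% of 82 genes tested, beside 2.54% of all genes. Among the 18 hypoxia-response genes the difference passed for Adm at 3.32, or 5.56%, beside the same 2.54%.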

How the results depend on the processing

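No paired analysis was possible because the tables hold no values per library for all genes, and for the same reason no count model was fitted and no replicate was left out. With BAF250A, 11 of the 35 genes were called, and 5 under Bonferroni adjustment, 4 under an empirical null (Slc2a3, Aldoc, Pgk1 and Ldhb) and 7 at an adjusted p below 0.01. With BRD9, 8 of the 35 were called, and 3 under Bonferroni adjustment and 3 under an empirical null (Slc2a3, Aldoc and Ldhb). Without genes that share 10% or more of their words, 24 genes were left. Of these, 8 were called with BAF250A and 5 with BRD9. Shared words were counted for the listed genes only, so these counts have no share of all genes beside them. The difference test called 1, and 0 under Bonferroni and 3 under an empirical null, which added Slc2a3 and Pgam2. Of 83 other pathway genes tested with BAF250A, 32 were called, and 13 and 4 under Bonferroni and the empirical null. Of 84 tested with BRD9, 13 were called, and 0 and 0 under those settings, or 6 at 0.01. Of 18 hypoxia-response genes, calls went from 13 to 8 and 4 with BAF250A. With BRD9 they went from 5 to 1 and 1, or 3 at 0.01. Over all genes these 2 settings called 9.51% and 4.21% with BAF250A, and 5.47% and 5.08% with BRD9. At 0.01 the share of all genes with BRD9 was 10.4%. In the difference, 6 of 82 other pathway genes passed, or 7.32% beside 2.54% of all genes. They became 2 under Bonferroni (0.754% of all genes) and 2 at 0.01 (1.66%). Without copies, Aldoa stood at 0.34 and -0.16, Eno1 at 0.73 and -0.20, and Gapdh at -0.64 and -1.89, the first value of Aldoa and of Eno1 having the opposite sign to the sum. Pfkl lost its call with BAF250A when values were centred on the median (adjusted p = 0.0524). Bonferroni and a threshold of 0.01 call fewer genes by construction. For the other settings the cause was not tested. With 2 libraries a group, the smallest change called over all genes was 1.02 with BAF250A and 1.29 with BRD9 on the log2 scale. No smaller change was called. Some larger changes were not called either, such as Gpi1 at 1.03 and Pygl at 3.33 with BAF250A.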
